A study of Mus musculus with 2 samples.

Results

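Hox genes are the transcription factor genes that record where along the body a cell arose, and here they were read in mouse skeletal muscle RNA of 2 genotypes. The members were the probe sets of the deposited value table that the platform annotation gives exactly 1 gene symbol, that symbol being Hoxa, Hoxb, Hoxc or Hoxd with a number alone. They came to 48 of 45037 probe sets other than array controls and to 33 of the 18193 genes named in this way. A RefSeq gene table lists 39 such genes. Of the other 6, Hoxb8 and Hoxd4 had only probe sets shared with a neighbouring Hox gene, and the others are not analysed here.

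The samples were 2 Affymetrix Mouse Genome 430 2 arrays, 1 for wild-type and 1 for Jhdm2a null animals, each hybridised with skeletal muscle RNA combined from 3 mice. All mice were males aged 3 months, with a strain label of 129 ES cells and 4 generations of backcrossing to C57BL/6, a background that both genotypes share. The labels name no particular muscle or limb, so where along the body the RNA came from is known only as skeletal muscle. Jhdm2a, now Kdm3a, encodes a demethylase of lysine 9 on histone H3, and the labels do not say which part of the gene was disrupted.

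Vertebrate Hox genes sit in clusters, called a to d, and the paralog number gives a gene's place within its cluster. Low numbers are switched on toward the head and high numbers toward the tail. In limbs the genes of groups 9 to 13 also follow the axis from shoulder or hip to digits. Adult fibroblasts, satellite cells and fat depots keep part of the pattern of their site of origin. Hoxc10 is known as a gene of the hindlimb and lower trunk, and Hoxc4, Hoxc5 and Hoxc6 as genes of the neck, forelimb level and upper thorax.

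Values are signal intensities computed by the authors with the Affymetrix MAS5 method, on a linear scale in arbitrary units. A probe set was called measured when it lay above a floor of 182 on both arrays, the 60th percentile of all signals, because the table holds no detection calls. Each gene's log2 ratio, null-labelled over wild-type-labelled, is the mean over its measured probe sets. With 1 array per genotype there is no replicate, so no test was run and the number of arrays limits the precision. The available error is technical. In the signal range of the measured Hox genes, log2 ratios from different probe sets of a gene had an SD of 0.30 over 2516 genes. For 18 spiked hybridisation controls the mean was -0.02 ± 0.09 (SD). Neither covers the spread between mice.

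Both arrays had a median signal of 112, and all 18 skeletal muscle fibre markers were measured. Their median log2 ratio was 0.18, and none reached 1.5-fold, which 3.38% of all measured genes did upward and 6.34% downward. Myoz1 came nearest at 0.57, and its probe sets disagreed. The dimmer read 1358.5 and 2656.4, a log2 ratio of 0.97, and the brighter 18695.5 and 21152, a log2 ratio of 0.18. Kdm3a read 406 in the wild-type and 488 in the null pool, a log2 ratio of 0.26, so its transcript was not lower where the label says null. The labels do not place its probe set relative to the disruption, so it may check nothing. Each pool is named below by its label, and every direction rests on those labels.

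Hox transcripts of groups 3 to 6 and 8 to 11 were above the floor in at least 1 pool, and those of groups 1, 2, 7, 12 and 13 lay under it in both. Of the 33 Hox genes, 12 (36.4%) were measured on both arrays and 15 (45.5%) were above the floor on at least 1. Over all 18193 genes those shares were 53.3% and 58.8%. The clusters were unequal, with 5 of 9 Hoxa genes, 5 of 7 Hoxc genes and 2 of 8 Hoxd genes measured on both arrays. None of the 9 Hoxb genes was. The 12 measured genes were Hoxa4, Hoxa5, Hoxa9, Hoxa10, Hoxa11, Hoxc4, Hoxc5, Hoxc6, Hoxc9, Hoxc10, Hoxd8 and Hoxd9.

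**Figure D1:**
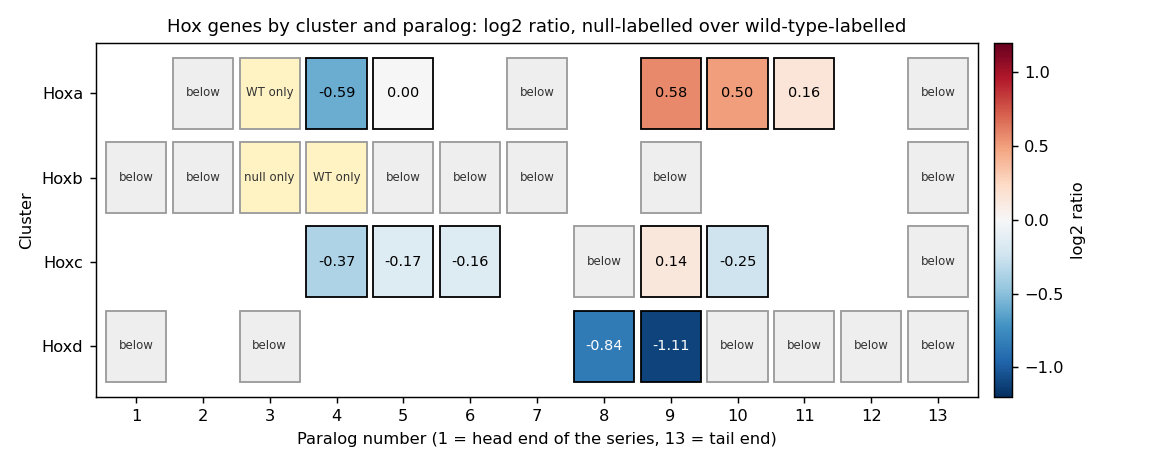
Hox genes by cluster (rows) and paralog number (columns). Coloured boxes give the log2 ratio, null-labelled over wild-type-labelled, of the 12 genes measured on both arrays, from -1.11 for Hoxd9 to 0.58 for Hoxa9. Yellow boxes mark genes above the floor on 1 array only, and grey boxes ("below") genes above it on neither. Genes without a probe set of 1 symbol are not drawn.

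Between the arrays, the measured Hox genes did not all differ in the same direction. The 2 Hoxd genes were the lowest in the pool labelled null, the Hoxa genes of groups 9 and 10 were the highest, and Hoxa5 was level. The median log2 ratio of the 12 genes was -0.17 against 0.04 for all 9696 measured genes. Of the 12, 3 (25%) were at least 1.5-fold lower, against 6.34% of all measured genes and 7.01% of those in the Hox signal range. That count was 2 of 12 with quantile normalization (6.00% of all genes) or with 100 added to each signal (4.94%). It was 2 of 5 with a floor at the 75th percentile (5.06%) and 4 of 17 with a floor at the 50th percentile (6.82%). With no floor it was 6 of 33, where 16.9% of all genes were that much lower. None of the 12 was at least 1.5-fold higher, against 3.38% of all genes. The higher count was 1 of 12 with quantile normalization (3.82% of all genes) or from the brightest probe set (3.69%). It was 1 of 5 with a floor at the 75th percentile (2.85%). With no floor, where dim signals enter, it was 5 of 33 (12.4%). At 2-fold, 1 of 12 was lower (2.36% of all genes) and 0 were higher (0.371%). In pooled tissue RNA, fewer cells that express a gene and less of its RNA per cell cannot be told apart.

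**Figure D2:**
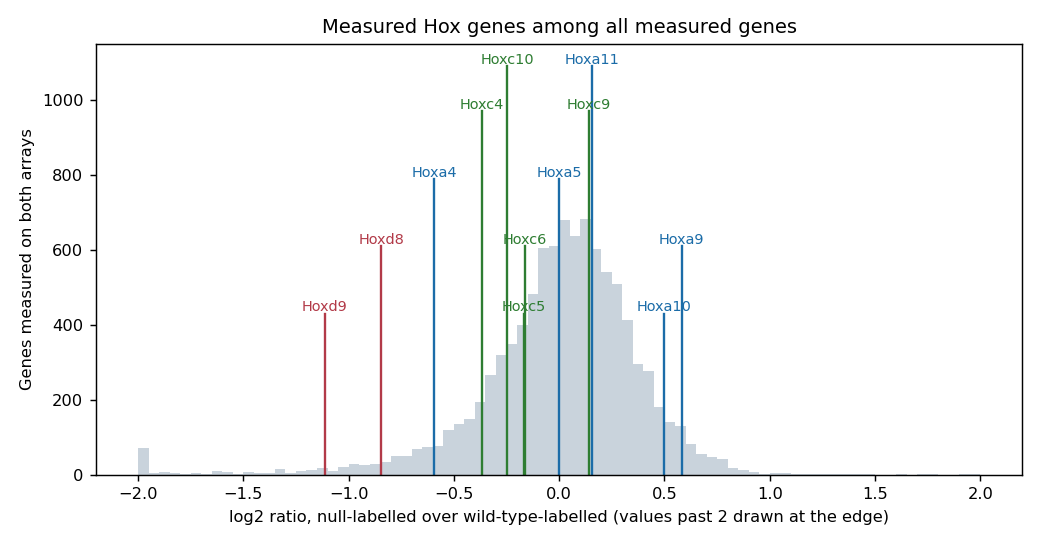
Histogram of the log2 ratio, null-labelled over wild-type-labelled (x axis), for 9696 measured genes (y axis: number of genes), with a labelled line at each of the 12 measured Hox genes, coloured by cluster; line heights carry no meaning. Hoxd9 at -1.11 and Hoxd8 at -0.84 stand in the left tail, and Hoxa9 at 0.58 and Hoxa10 at 0.50 on the right shoulder.

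Hoxd9, which helps pattern the lumbosacral spine and the proximal segment of the limbs, had the lowest ratio of the 12 measured genes, though Hoxc5 was lower (-1.26) with no floor. Its probe set, 1419126_at, read 1529.6 in the pool labelled wild-type and 707 in the pool labelled null, 2.16-fold lower (log2 ratio -1.11). Only 191 of the 9696 measured genes had a lower ratio. The difference is larger than the spread between probe sets of a gene, and it rests on a single probe set.

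Hoxd8, its neighbour in the cluster, was lower in both of its probe sets. The probe set 1431099_at read 2325 in the pool labelled wild-type and 1497 in the pool labelled null, and 1433638_s_at read 1985 and 957. The gene's log2 ratio was -0.84 ± 0.30 (SD of 2 probe sets), 1.79-fold lower, and 316 genes had a lower ratio. Both Hoxd genes kept this direction under all 11 alternative processing settings, over which Hoxd8 ranged from -0.90 to -0.63 and Hoxd9 from -1.16 to -1.01.

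The rest of the Hoxd cluster was dim on both arrays. Hoxd10, the next gene after Hoxd9, read 172 in the pool labelled wild-type, just under the floor, and 124, further under it, in the pool labelled null. Hoxd1, Hoxd3, Hoxd11, Hoxd12 and Hoxd13 read under 100 on each array, so no order between the arrays can be read from them. Hoxd11 to Hoxd13 are the genes that shape forearm, shank and digits.

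Hoxa9 lies in the same paralog group as Hoxd9 and pointed the other way. Its probe set 1455626_at read 735 in the pool labelled wild-type and 1607 in the pool labelled null, a log2 ratio of 1.13. Its other probe set, 1421579_at, read 352 and 360, a log2 ratio of 0.03. The probe sets thus differ by far more than the usual spread, and the mean of 0.58 ± 0.77 (SD of 2 probe sets) stops just short of the 1.5-fold line. From its brightest probe set alone, Hoxa9 would count as at least 2-fold higher, the 1 Hox gene to do so.

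The start regions of the 2 genes with the lowest ratios are shown. Beside them is that of Hoxa9, the group 9 gene that went the other way and had the highest mean ratio. Each is the RefSeq window of 300 bases, 250 before to 50 after the gene's start, 5′ to 3′ on the gene's strand, with CpG dinucleotides in capitals.
Hoxd8, GRCm38.p6, chr2:74704365-74704664, plus strand: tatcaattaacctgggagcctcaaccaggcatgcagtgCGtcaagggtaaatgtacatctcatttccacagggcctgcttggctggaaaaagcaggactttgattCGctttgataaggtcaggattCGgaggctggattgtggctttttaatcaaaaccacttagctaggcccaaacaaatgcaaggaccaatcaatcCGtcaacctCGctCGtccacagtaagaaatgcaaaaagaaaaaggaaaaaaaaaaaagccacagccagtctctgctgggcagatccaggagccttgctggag
Hoxd9, GRCm38.p6, chr2:74697513-74697812, plus strand: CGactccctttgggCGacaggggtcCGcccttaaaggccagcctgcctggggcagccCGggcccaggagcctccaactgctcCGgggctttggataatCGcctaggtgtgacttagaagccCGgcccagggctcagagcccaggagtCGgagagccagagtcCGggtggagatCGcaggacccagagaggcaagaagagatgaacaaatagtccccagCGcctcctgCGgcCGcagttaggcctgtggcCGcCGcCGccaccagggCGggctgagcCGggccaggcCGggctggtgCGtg
Hoxa9, GRCm38.p6, chr6:52227321-52227620, minus strand: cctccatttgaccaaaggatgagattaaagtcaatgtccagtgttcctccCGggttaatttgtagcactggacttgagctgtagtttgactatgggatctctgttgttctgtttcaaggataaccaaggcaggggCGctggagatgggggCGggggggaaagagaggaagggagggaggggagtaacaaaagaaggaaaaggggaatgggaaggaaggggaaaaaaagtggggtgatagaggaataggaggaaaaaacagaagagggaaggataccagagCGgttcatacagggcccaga
The Hoxd9 window holds 20 CpG dinucleotides, the Hoxd8 window 6 and the Hoxa9 window 4, against a median of 7 over 32851 RefSeq windows and of 14.5 over 24 Hox windows of 22 genes. The lower pair therefore do not share a CpG count, and Hoxd8 is nearer to Hoxa9 in this respect than to Hoxd9. On either strand, none of the 3 windows holds TGATNNAT, a letter pattern bound by Pbx with Hox, or TGACAG, a pattern bound by Meis proteins. These were found in 8.85% and 19.2% of all windows, and in 4 and 2 of the 24 Hox windows. None holds TTTATNG, a pattern of the tail-end Hox proteins found in 10.9% of all windows. Nor does any hold TAATTA, a homeodomain palindrome found in 5.29%, or the TATA box TATAAA, found in 13.6%. The tail-end pattern can overlap a TATA box read on the other strand. No match says only that these letters are not in the window.

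Hoxa10, which follows Hoxa9 and marks the proximal limb segment and lumbar level, was also higher in the pool labelled null. Its measured probe set, 1431475_a_at, read 440.4 in the pool labelled wild-type and 622 in the pool labelled null, a log2 ratio of 0.50 (1.41-fold). Of all measured genes, 578 had a higher ratio. Its other probe set lay under the floor at 71.4 and 48.3, and with no floor the gene's mean turned to -0.03.

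Hoxa11, a gene of the middle limb segment that limb muscle progenitors also express, read 329 and 367, a log2 ratio of 0.16. That is within the spread between probe sets of a gene. Hoxa13, the gene of the hand and foot, lay under the floor on both arrays at 39.1 and 45.

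At the head end of the cluster, Hoxa4, a gene of the neck region, was lower in the pool labelled null. It read 352 in the pool labelled wild-type and 233 in the pool labelled null, a log2 ratio of -0.59. This is 1.51-fold, just past the 1.5-fold line, and comes from 1 of its 2 probe sets. Hoxa4 kept its direction but fell short of 1.5-fold with quantile normalization (-0.58), with 100 added to each signal (-0.44), and with a floor at the 50th percentile or none (-0.40 in both).

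Hoxa5, a gene of the neck and upper thorax, was the most even member. Its probe sets read 929.5 and 919 at 1443803_x_at, and 521 and 528 at 1448926_at, in the order wild-type and null. The log2 ratio was 0.00 ± 0.02 (SD of 2 probe sets), with either sign among the alternatives. Hoxa3 was above the floor only in the pool labelled wild-type, in 1 of 4 probe sets that read 213 there and 142.5 on the other. Hoxa2 and Hoxa7 were under the floor on both.

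**Figure D3:**
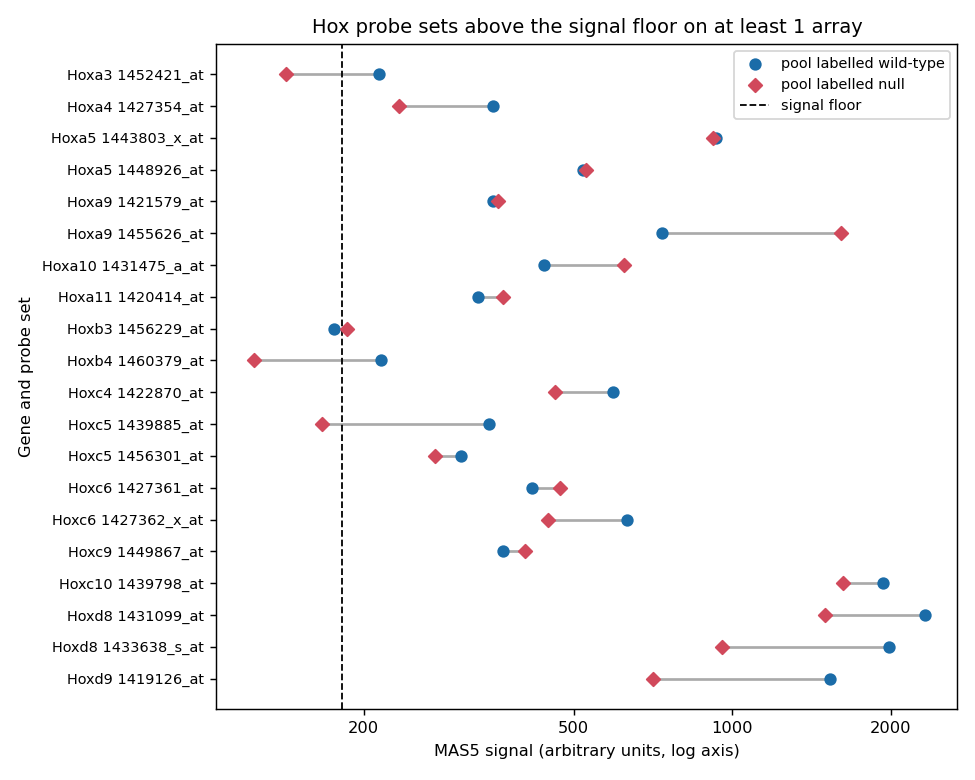
MAS5 signal (x axis, log scale) of the 20 Hox probe sets above the floor on at least 1 array, by gene and probe set (y axis). Circles are the pool labelled wild-type and diamonds the pool labelled null, and the dashed line is the floor of 182. Hoxd8 and Hoxd9 diamonds lie well to the left of their circles, the diamond of Hoxa9 1455626_at lies to the right, and the Hoxa5 symbols overlap.

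In the Hoxc cluster Hoxc4 was modestly lower in the pool labelled null, and Hoxc9 and Hoxc10 were within the technical spread. Hoxc5 was lower by a size that was not settled, and Hoxc6 had no settled direction. Hoxc4 read 595 in the pool labelled wild-type and 462 in the pool labelled null, a log2 ratio of -0.37. Hoxc4 is known from the neck and forelimb level, and its ratio is slightly larger than the spread between probe sets of a gene.

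Hoxc5 depended on which probe sets were used. The 1 measured on both arrays, 1456301_at, read 306 and 273, a log2 ratio of -0.17, within the technical spread. Another, 1439885_at, read 346 in the pool labelled wild-type and 167, under the floor, in the pool labelled null. With dim signals raised to the floor, an alternative chosen after the data were seen, the gene's log2 ratio was -0.55. With a floor at the 50th percentile it was -0.61, and with no floor it was -1.26. The direction was the same in these settings, and the size was not settled.

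Hoxc6, a thoracic gene whose forward limit falls at the forelimb, had probe sets of opposite sign. The probe set 1427361_at read 417 in the pool labelled wild-type and 471 in the pool labelled null, and 1427362_x_at read 632 and 446. The mean log2 ratio of -0.16 ± 0.48 (SD of 2 probe sets) therefore gives no direction, and it was 0.17 without probe sets that may cross-hybridise.

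Toward the tail end, Hoxc9 and Hoxc10 were close between the arrays. Hoxc9, a gene of the thorax, read 367 and 404, a log2 ratio of 0.14. Hoxc10, the hindlimb gene, read 1928 in the pool labelled wild-type and 1623 in the pool labelled null, a log2 ratio of -0.25. Both signals lie far above the floor of 182, so Hoxc10 was plainly detected in both pools. Hoxc8 read 128 and 78.8, and Hoxc13 lay lower still.

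Hoxb genes were near or under the floor throughout. Hoxb3 was above it only in the pool labelled null, at 186 against 176, and that difference is smaller than the technical spread. Hoxb4 was above it only in the pool labelled wild-type, at 215 against 124. For single arrays, 3.00% of all genes were above the floor in the pool labelled wild-type alone and 2.45% in the pool labelled null alone, and among Hox genes these were Hoxa3 and Hoxb4, and Hoxb3. Hoxb2 read 175 in the pool labelled wild-type, just under the floor, and 120, further under it, in the pool labelled null. Hoxb1, Hoxb5, Hoxb6, Hoxb7, Hoxb9 and Hoxb13 lay below it on both arrays.

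Read along the paralog number, the measured genes divided in part. Of the 6 with numbers from 4 to 8, 5 had a ratio below 0, among them Hoxc6 with probe sets of opposite sign, and the other was Hoxa5 at 0.00. Of the 6 with numbers from 9 to 11, 4 had a ratio above 0, and Hoxc10 and Hoxd9 were below it. Over all 12, 5 (41.7%) had a ratio above 0, against 55.7% of all measured genes. Across these 12 genes the rank correlation of log2 ratio with paralog number was 0.45, which is a description only, since genes of a cluster are neighbours and share their arrays. The Hoxd pair goes against it, because the lower member of the pair is the one of higher number. This division was made after the values were seen.

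Probe sets left out for carrying several symbols, and those of antisense transcripts, gave no further signal. The 3 shared by Hoxb7 with Hoxb8 or by Hoxd3 with Hoxd4 were under the floor on both arrays. So were the 5 of the antisense genes Hoxa11os, Hoxb5os and Hoxd3os1.

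Regulators that mark limb, trunk or head muscle were listed beside the Hox genes, 36 of 39 with a probe set, and 17 were measured. Pitx1, the factor that gives the hindlimb its identity, was above the floor only in the pool labelled null. Its 2 probe sets read 77.1 and 71.5 in the pool labelled wild-type and 326 and 359 in the pool labelled null, which is higher by at least 1.79-fold for the dimmer and 1.97-fold for the brighter when set against the floor. Tbx4, its partner in the hindlimb, and Tbx5, the forelimb factor, were under the floor on both arrays. Of the measured regulators 4 of 17 were at least 1.5-fold higher (3.38% of all measured genes) and 0 lower (6.34%), with a median of 0.13. They were Tbx1, Tbx15, Eya1 and Prrx1. Tbx1, a factor of head muscle, was at 2.07 on the log2 scale from a single probe set. Tbx15, a limb and trunk factor of fast fibres, was at 1.38 ± 0.96 (SD of 2 probe sets). Eya1 was at 0.63 from 1 measured of 3 probe sets. Prrx1, a limb mesenchyme factor, was at 0.61 ± 0.56 (SD of 4 probe sets). The direction of Pitx1 is that of Hoxa9, whose 2 probe sets were at 1.13 and 0.03, and of Hoxa10, which turned to -0.03 with no floor. It is not that of Hoxd9, a gene of the lumbosacral spine and proximal limb, at -1.11. Hoxc10, also a hindlimb gene, had -0.25.

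The remaining regulators differed less. Six4, Eya4, Meox1, Meox2, En1, Lbx1, Shox2 and Msx1 had log2 ratios from 0.53 down to 0.03. Msc, Pax3, Tbx3, Six2 and Zic1 had ratios from -0.02 down to -0.34. Lbx1, needed by precursors that migrate into limbs, was even at 0.06. Mkx was above the floor only in the pool labelled wild-type, at 226.

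**Figure D4:**
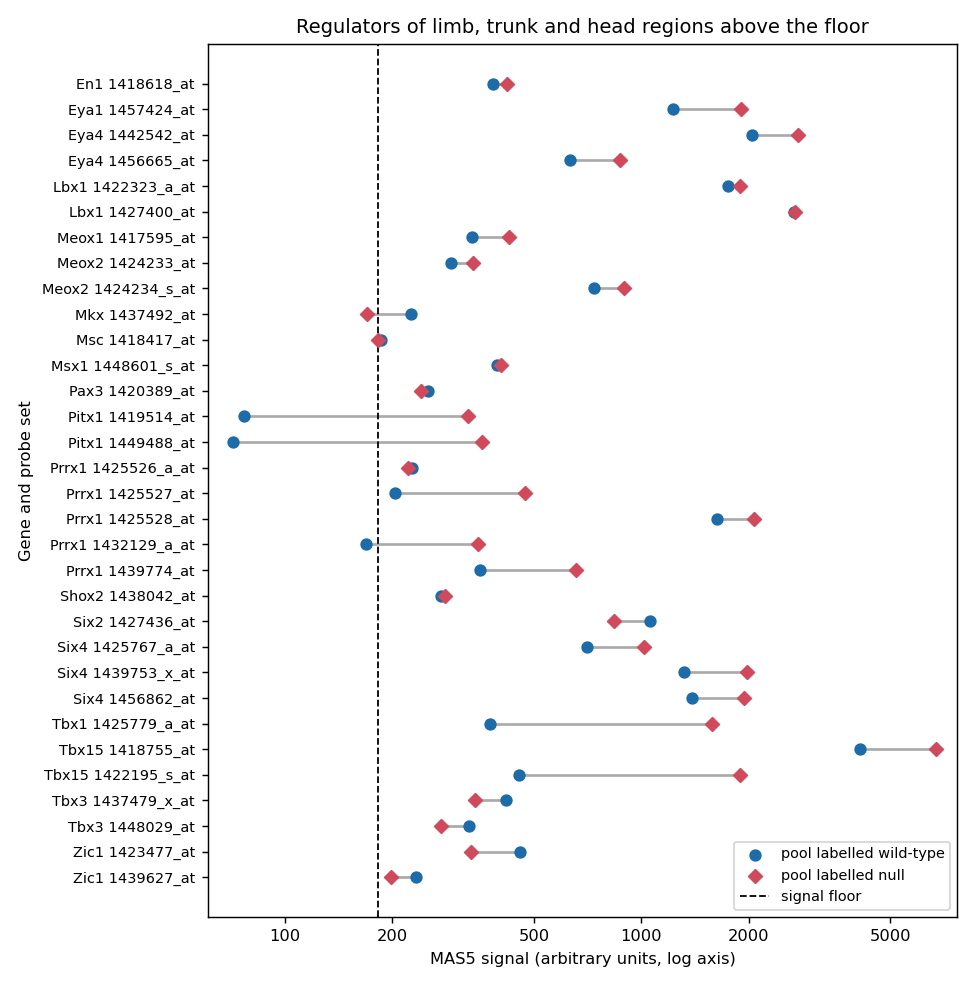
MAS5 signal (x axis, log scale) of probe sets for listed limb, trunk and head regulators that were above the floor on at least 1 array, by gene and probe set (y axis). Circles are the pool labelled wild-type and diamonds the pool labelled null, and the dashed line is the floor. Both Pitx1 circles, at 77.1 and 71.5, lie left of the floor and both diamonds right of it.

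Hox proteins bind DNA with partners of the Pbx, Meis and Pknox families. Of 9 such genes 4 were measured, Pbx2, Pbx3, Pknox1 and Pknox2, and 0 were past 1.5-fold, with a median log2 ratio of -0.14. Meis1, Meis2, Meis3 and Pbx4 were under the floor on both arrays. Polycomb proteins keep Hox genes silent and trithorax-type proteins keep them active. Of 24 measured Polycomb genes and 11 measured trithorax-type genes 0 were past 1.5-fold, with medians of 0.17 and 0.11. Among 13 other measured regulators of Hox genes, 1 was at least 1.5-fold higher and 1 lower. These were Aldh1a1, which makes retinoic acid, at 0.73 and Gmnn, the replication inhibitor geminin, at -0.78. Of all measured genes 3.38% were that much higher and 6.34% lower, so counts of 0 or 1 in lists this small say little about these families.

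Genes beside the clusters were compared to see whether Hox ratios run on into neighbours. Around Hoxd, Lnpk on the Hoxd13 side was higher in all 3 probe sets, at 0.82 ± 0.34 (SD of 3 probe sets), and Mtx2 beyond Hoxd1 had -0.02. Neither had the direction and size of Hoxd8 and Hoxd9. Around Hoxa, Skap2 and Snx10 had -0.81 ± 0.61 (SD of 2 probe sets) and -1.95, and Hibadh had -0.12. Around Hoxc, Smug1 and Calcoco1 had 0.01 and 0.04. Of the 16 measured genes in this list 1 was at least 1.5-fold higher, Lnpk, and 3 lower, Skap2, Snx10 and Copz1, the last at -0.61. Of all measured genes 3.38% were that much higher and 6.34% lower.

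Markers of other tissues differed between the same arrays by much more than Hox genes did. All 12 measured adipocyte markers were below 0, and 11 were at least 1.5-fold lower (6.34% of all measured genes), with a median log2 ratio of -2.71. Of all measured genes, 55.7% were above 0. The summed signal of the adipocyte list was 161993 in the pool labelled wild-type and 76764 in the pool labelled null. Those sums hold bright Car3 probe sets that differed little, at 24357 and 26112 and at 12254 and 11505. Of 10 measured brown adipocyte markers 8 were below 0 and 4 at least 1.5-fold lower (6.34% of all measured genes), led by Ucp1 at -5.71. Their median was -0.39, and -1.38 over all 15 markers above the floor on either array with dim signals raised to the floor, of which 13 were lower. The brown adipocyte list had summed signals of 93584 and 53676. Within these sums, Cox8b read 20562 and 18805, Cox7a1 13555 and 13825, and the brighter Fabp3 probe set 14460 and 17506. Much of both sums thus comes from members that differed little. The brown adipocyte markers Elovl3, Kcnk3, Otop1, Slc27a2 and Cpn2 were under the floor in the pool labelled null, and Lhx8 on both. Of hepatocyte markers 11 were above the floor in some pool, 8 of them only in the pool labelled wild-type (3.00% of all genes). Each of the 11 was lower in the pool labelled null, with summed signals of 26832 and 3733, and Alb was at -2.87. The part of these tissues in the Hox values was not tested. Brown and white fat express Hox genes too.

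Fibroblast markers, from cells that carry Hox patterns in muscle, differed less. All 12 measured fibroblast markers were above 0, against 55.7% of all measured genes, with a median of 0.16, though Tcf4 was level at 0.0003. None of the 12 was past 1.5-fold, which 3.38% of all measured genes were upward and 6.34% downward. Osr1, also in the list, went the other way. It was above the floor only in the pool labelled wild-type, at 218.5 against 180.1. Of satellite cell markers 3 were measured, with a median of 0.14. Myf5 was above the floor only in the pool labelled null, at 312 against 162.5, higher by at least 1.71-fold when set against the floor, and Pax7 was under it on both arrays. Schwann cell markers had a median of 0.57 over 7 genes, all above 0. At least 1.5-fold higher were 3 of them (3.38% of all measured genes), Pmp22 at 0.65, Mal at 0.88 and Ncmap at 1.49. Tendon, bone and cartilage, skin, endothelial, smooth muscle and leukocyte lists had medians of 0.03, 0.17, 0.37, -0.02, 0.16 and -0.11. The part of these cell types in the Hox values was not tested either.

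**Figure D5:**
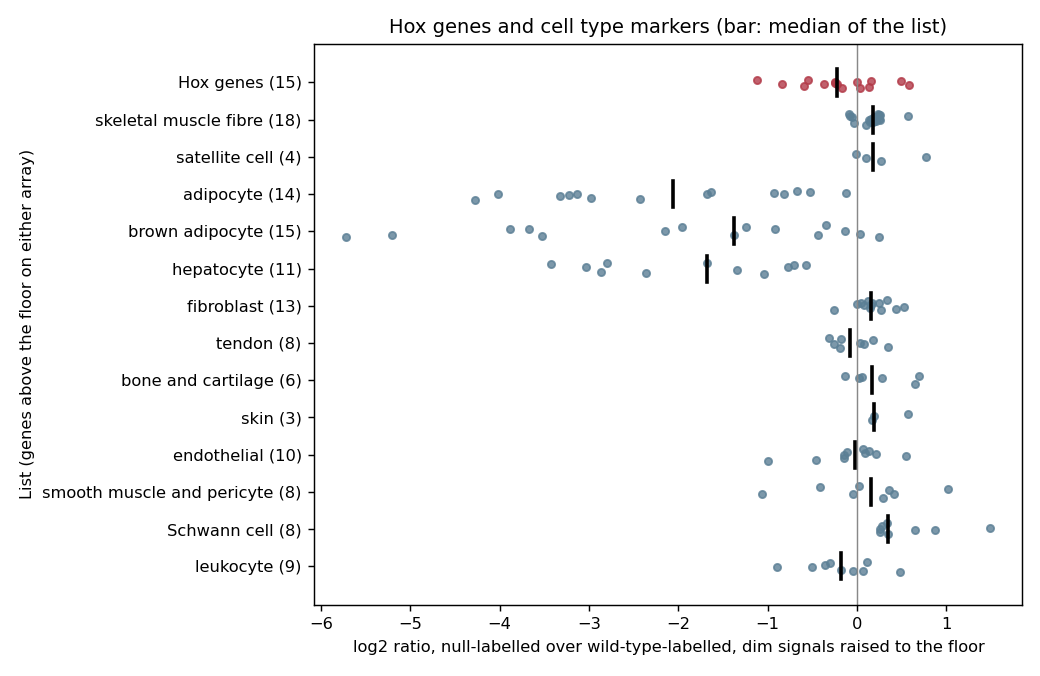
Log2 ratio, null-labelled over wild-type-labelled (x axis), of Hox genes and of cell type markers (rows) above the floor on either array, with dim signals raised to the floor; points are genes, bars list medians and numbers in brackets the genes shown. The 15 Hox genes lie between -1.11 and 0.58, while adipocyte, brown adipocyte and hepatocyte genes reach far to the left.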

How the data were processed

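The deposited table gives a linear signal intensity for each probe set, which the authors computed with MAS5 (version not stated) per the submitters' processing notes. As deposited, each array's 2% trimmed mean was 500.003. The values were set to a common 2% trimmed mean, 64 control probe sets were left out, and 0 columns of other samples were present. Of 45037 probe sets 34945 had 1 gene symbol, and all 33 Hox symbols matched the RefSeq table of GRCm38.p6, which was used only for names, neighbours and promoter windows because the files name no build.

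Members and gene lists were chosen with earlier results of these data known. Text names every Hox gene, Kdm3a, region regulators above the floor, other pathway genes past 1.5-fold, and up to 3 markers per list; other neighbours, cofactors, and markers named for lying under the floor or with smaller ratios were added after their values were seen. A 2-fold count also required probe sets of 1 sign. Alternatives covered normalization (loess span 0.3), the floor, a pseudocount of 100 and the choice of probe sets. Work was done in Python 3.11.15 with pandas 2.3.3, numpy 2.4.6 and statsmodels 0.14.6, and the gene summary was tested on simulated data.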

Additional observations from a re-analysis of the deposited data

How the results depend on the processing

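No paired analysis was possible because each genotype has 1 array. Raising the floor to the 75th percentile left 5 Hox genes measured on both arrays and 8 above the floor on either, with 1 past 1.5-fold and 1 past 2-fold in the higher direction, which is Hoxa9 through its bright probe set. Of all genes measured with that floor, 2.85% were past 1.5-fold and 0.168% past 2-fold in the higher direction. Using the brightest probe set gave the same 1 and 1 (3.69% and 0.433% of all genes). Quantile normalization gave 1 gene at least 1.5-fold higher (3.82%). With no floor all 33 genes have a value, 5 at least 1.5-fold higher and 6 lower, and 3 at least 2-fold higher and 4 lower, because dim signals then enter. Over all genes that setting counts 12.4% at 1.5-fold higher and 16.9% lower, and 5.10% at 2-fold higher and 8.39% lower. The other counts and the median stayed within 1.5 times, or within the spread between probe sets. Of single genes, Hoxa10 ranged from -0.03 to 0.53, Hoxa9 from 0.53 to 1.13, Hoxc5 from -1.26 to -0.12 and Hoxc6 from -0.50 to 0.17. Without detection calls, the floor limits what can be said of dim Hox genes.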
